A study of Mus musculus with 8 samples.

Results

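The genes described here are 9 components of Notch signaling, the receptors Notch1, Notch2 and Notch3, the ligand Jag1, the transcription factors Hes1, Hey1, Hey2 and Heyl, and the feedback inhibitor Nrarp. They were selected on their measured levels, with FPKM values of these same 8 samples known, so their levels and differences are given as a description, with no test. All 9 were found among the 20198 genes with a value in every sample. FPKM divides the sequenced fragments of a gene by its length and by the depth of its sample, so it can be compared between genes of different length. Only 3 of the 9, Hes1, Jag1 and Notch2, reached 1 FPKM in at least 2 samples and entered the fit over 10286 genes, and Hes1 did so only through the Hh-CM and Esrrb+Hh-CM samples.

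The RNA-Seq data came from NIH3T3, a fibroblast line derived from mouse embryos and able to answer Hedgehog ligand, in 4 conditions with 2 samples each. Control samples were cells carrying the empty pcDNA3.1 (Zeo+) vector treated with vehicle, and Hh-CM samples were the same cells treated with 1 % Hh-CM, medium conditioned by HEK293 cells that secrete the N-terminal part of Sonic Hedgehog. Samples labelled Esrrb and Esrrb+Hh-CM carried pcDNA3.1 (Zeo+)-Esrrb, a vector for the orphan nuclear receptor Estrogen related receptor β, and received vehicle or 1 % Hh-CM. Both vector lines went through Zeocin selection, were grown to confluence and were treated for 48 h, and the vehicle was an equal dilution of medium from HEK293 cells without the Shh-N transgene. Established cells of independent transfections were pooled, and it is not stated if 1 pool or separate transfections gave rise to the 2 samples of each condition. The study calls its samples biological replicates, but neither it nor the labels tie a sample to a separate culture, and the errors given here measure only the spread between these samples.

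In Notch signaling a Jagged or Delta ligand on 1 cell binds a Notch receptor on its neighbour, which is then cut by an ADAM protease and by the γ-secretase complex. The freed intracellular domain enters the nucleus, joins the DNA-binding protein Rbpj and a Mastermind coactivator, and switches on genes such as the Hes and Hey basic helix-loop-helix repressors and Nrarp. Hes1 is also known to respond to other pathways, Hedgehog among them. In bulk RNA of this kind, fewer expressing cells and less RNA per cell cannot be told apart.

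The treatment was visible in Gli1 and Ptch1, standard targets of Hedgehog signaling. Gli1 stood at 0.022 and 0.031 FPKM in Control, 26.8 and 28.1 in Hh-CM, 0.106 and 0.037 in Esrrb, and 34.5 and 34.8 in Esrrb+Hh-CM samples. Ptch1 was 13.6-fold higher in Hh-CM than in Control samples and 15.7-fold higher in Esrrb+Hh-CM than in Esrrb samples. The vector was not visible: the Esrrb gene was listed at 0 in both Control samples and in all 4 samples whose labels name the Esrrb vector, and at 0.0281 and 0.0203 FPKM in Hh-CM samples. The study showed Esrrb protein by Western blot in Esrrb-transfected cells, and describes the empty-vector cells as lacking it. It does not say that the blotted cells were those sequenced. Only the locus that best overlaps the Esrrb gene was used, so vector reads assembled into another locus would be missed. Since the RNA values used here do not show the vector, the samples are called by their labels. Within these values, every difference drawn to Esrrb or Esrrb+Hh-CM samples rests on the label. Of 10 fibroblast markers 9 had a value and each of those reached 1 FPKM, with a summed level of 5840 to 6810, whereas all 5 skeletal muscle markers were at 0, none of 6 epithelial and none of 5 neural markers reached 1, and of 4 blood markers with a value only Cd68 did. Among 6 smooth muscle and pericyte markers 2 reached 1 FPKM, and their summed level moved with the conditions, at 374 to 379 in Control, 215 to 229 in Hh-CM, 212 to 214 in Esrrb and 127 to 128 in Esrrb+Hh-CM samples. Nearly all of that sum was Acta2, smooth muscle actin, which alone gave 372 to 377 in Control and 124 to 125 in Esrrb+Hh-CM samples. Of 6 endothelial markers 3 were at 0, and the receptor Tek reached 1 only with Hh-CM, at 1.06 and 1.24 in Hh-CM and 1.11 and 1.51 in Esrrb+Hh-CM samples. The part these markers play in the results on the Notch genes was not tested.

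Promoters of 6 of the 9 genes (Hey2, Jag1, Notch1, Notch2, Notch3 and Nrarp) could be matched to RefSeq, build GRCm38.p6, which differs from the mm9 build of the expression values. The 250 bases before the start of Jag1, the ligand among the members, and of Hey2 and Nrarp, the only 2 of the 6 that hold a searched motif, are shown 5′ to 3′ on the gene's strand, with the motif in capitals.

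Jag1 (chr2:137116521-137116770, minus strand): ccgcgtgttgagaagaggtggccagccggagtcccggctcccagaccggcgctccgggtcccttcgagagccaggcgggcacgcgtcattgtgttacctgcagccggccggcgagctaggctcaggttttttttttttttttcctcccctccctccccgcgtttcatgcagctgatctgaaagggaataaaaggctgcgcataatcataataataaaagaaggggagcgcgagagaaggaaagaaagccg
Hey2 (chr10:30842784-30843033, minus strand): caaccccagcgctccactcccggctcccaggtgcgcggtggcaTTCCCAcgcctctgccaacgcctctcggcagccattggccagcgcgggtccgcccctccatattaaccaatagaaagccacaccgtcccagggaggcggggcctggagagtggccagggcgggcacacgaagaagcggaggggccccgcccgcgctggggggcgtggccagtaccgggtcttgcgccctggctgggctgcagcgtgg
Nrarp (chr2:25180508-25180757, plus strand): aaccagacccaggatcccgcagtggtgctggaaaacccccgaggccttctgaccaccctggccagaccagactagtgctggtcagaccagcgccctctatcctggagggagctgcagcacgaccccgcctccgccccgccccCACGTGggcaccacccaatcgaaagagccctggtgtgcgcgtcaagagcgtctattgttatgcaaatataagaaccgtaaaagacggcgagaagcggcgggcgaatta

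The motifs were searched as exact letters on both strands. TGGGAA, the core bound by Rbpj, was found in Hey2 alone, 207 bases before the start and on the opposite strand, and is present in 21.6% of all 32851 mouse promoters of this length. CACGTG, an E-box that reads the same on both strands and is bound by many basic helix-loop-helix factors, was found in Nrarp alone, 108 bases before the start, against 6.02% of all promoters. Neither GACCACCCA, the Gli consensus, nor TCAAGGTCA, the Estrogen related receptor element, was found in any of the 6 windows, and these motifs are present in 0.225% and 0.387% of all promoters. A match of letters is not a bound site, and the 2 genes with one, Hey2 and Nrarp, were both listed at 0 FPKM in all 8 samples.

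Hes1, the repressor that is the usual readout of Notch signaling, showed the widest span of the 9 genes (mm9 chr16:30064470-30067882, plus strand). Its level was 0.550 and 0.725 FPKM in Control, 8.60 and 8.35 in Hh-CM, 0.118 and 0.0515 in Esrrb, and 3.27 and 2.69 in Esrrb+Hh-CM samples. No pair of conditions overlapped, and the order ran from Esrrb through Control and Esrrb+Hh-CM to Hh-CM. Control samples averaged 0.637 ± 0.123 and Hh-CM samples 8.47 ± 0.178, while Esrrb samples averaged 0.0845 ± 0.0467 and Esrrb+Hh-CM samples 2.98 ± 0.409 (FPKM, SD, n = 2 each).

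**Figure D1:**
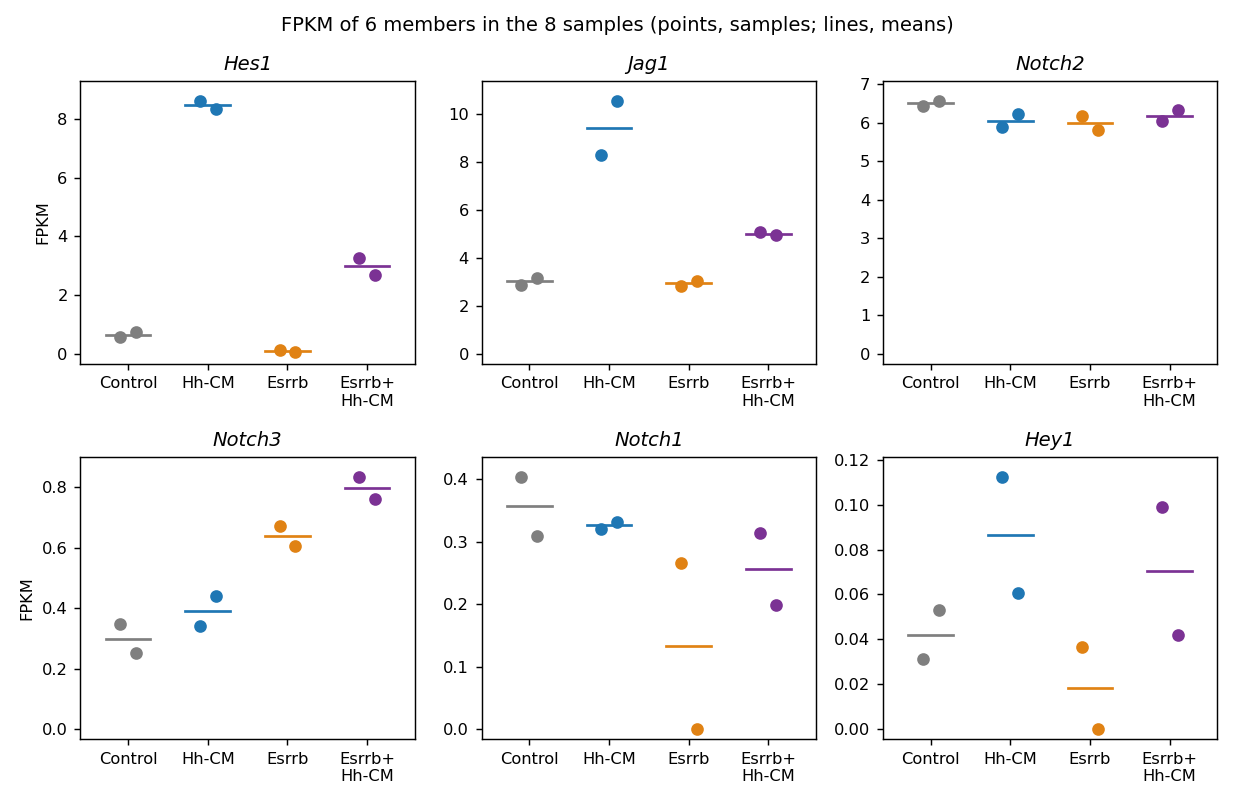
FPKM of Hes1, Jag1, Notch2, Notch3, Notch1 and Hey1 in each of the 8 samples, 1 panel per gene with its own linear axis from 0, with points for samples and lines for the means of 2 samples. Hes1 and Jag1 are highest in Hh-CM samples, Notch2 stays between 5.82 and 6.56 FPKM, Notch3 is highest in samples labelled Esrrb and Esrrb+Hh-CM, and all Hey1 points lie at or below 0.112 FPKM.

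Adding Hh-CM went with more Hes1 in both vector lines. The mean was 13.3-fold higher in Hh-CM than in Control samples, a difference of 3.55 ± 0.24 in log2(FPKM + 0.1) (limma SE), and 35.3-fold higher in Esrrb+Hh-CM than in Esrrb samples, a difference of 4.08 ± 0.24. In samples labelled Esrrb the level was 7.55-fold lower than in Control samples without Hh-CM (log2 difference -2.01) and 2.84-fold lower than in Hh-CM samples with it (log2 difference -1.48). With both the vector and Hh-CM, Hes1 was still 4.68-fold above Control samples (log2 difference 2.07).

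Few reads stand behind the low end of this range. FPKM of Hes1 fell on whole multiples of a step that scales with each sample's depth, within 0.0122 of a step, and taking 1 step as 1 read gives 11 and 17 reads in Control, 191 and 257 in Hh-CM, 2 and 1 in Esrrb, and 62 and 40 in Esrrb+Hh-CM samples. The 3 reads over both Esrrb samples against 28 over both Control samples put the pooled ratio at 7.83-fold lower, with an exact 95% counting interval of 2.42 to 40.2. For Esrrb+Hh-CM against Esrrb samples the interval ran from 12.2 to 181, and for Hh-CM against Control samples from 8.95 to 20.0. These intervals cover counting error only, and the last 2 overlap, which is not a test of the difference between the lines. No interval was computed for that difference, so the Hh-CM ratio of Hes1 is not ordered between the lines here. The scale decides the sign as well: the Hh-CM difference in the Esrrb line minus that in the control line was 0.53 in log2(FPKM + 0.1), 1.49 with a pseudocount of 0.001 and -0.66 with a pseudocount of 1.

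Hes1 passed both thresholds used for calls, an adjusted p below 0.05 and a log2 difference of at least 1 in size, in all 5 comparisons. Since the genes were chosen on these values, nothing is read from that. Over all 10286 genes 2.76% passed both thresholds in Hh-CM against Control samples, where Hes1 and Jag1 were the 2 members that did. In the other comparisons Hes1 was the 1 member that passed, beside 1.47% of all genes in Esrrb against Control, 6.22% in Esrrb+Hh-CM against Control, 1.98% in Esrrb+Hh-CM against Hh-CM and 4.81% in Esrrb+Hh-CM against Esrrb samples. For the difference between the lines in their Hh-CM difference (the interaction, for which the adjusted p alone counts), 0 of the 3 fitted members passed, beside 1.35% of all genes.

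Jag1 encodes Jagged1, a transmembrane Notch ligand (mm9 chr2:136907192-136942380, minus strand). It stood at 2.87 and 3.15 FPKM in Control, 8.27 and 10.5 in Hh-CM, 2.82 and 3.05 in Esrrb, and 5.06 and 4.93 in Esrrb+Hh-CM samples. Control and Esrrb samples overlapped, and every other pair of conditions was apart. Means were 3.01 ± 0.198, 9.40 ± 1.60, 2.93 ± 0.164 and 4.99 ± 0.0907 in the same order (SD, n = 2 each).

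Jag1 was 3.12-fold higher in Hh-CM than in Control samples (log2 difference 1.60 ± 0.13, SE) and 1.70-fold higher in Esrrb+Hh-CM than in Esrrb samples (log2 difference 0.75). Without Hh-CM the level in samples labelled Esrrb differed from Control by less than the spread between replicates, with a log2 difference of -0.04. With Hh-CM it was 1.88-fold lower in Esrrb+Hh-CM than in Hh-CM samples, a log2 difference of -0.89, and 1.66-fold above Control. The Hh-CM difference was 0.85 smaller on the log2 scale in the Esrrb line (SE 0.18), an interaction that did not pass the adjusted p. It was smaller by 0.87 with a pseudocount of 0.001 and by 0.76 with a pseudocount of 1. At these levels of Jag1 no pseudocount of that size could reverse the order, so nothing further is read from this. Hes1 and Jag1 thus shared the highest level in Hh-CM samples and an intermediate one in Esrrb+Hh-CM samples, but differed in Esrrb samples, where Hes1 lay below Control and Jag1 beside it.

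**Figure D2:**
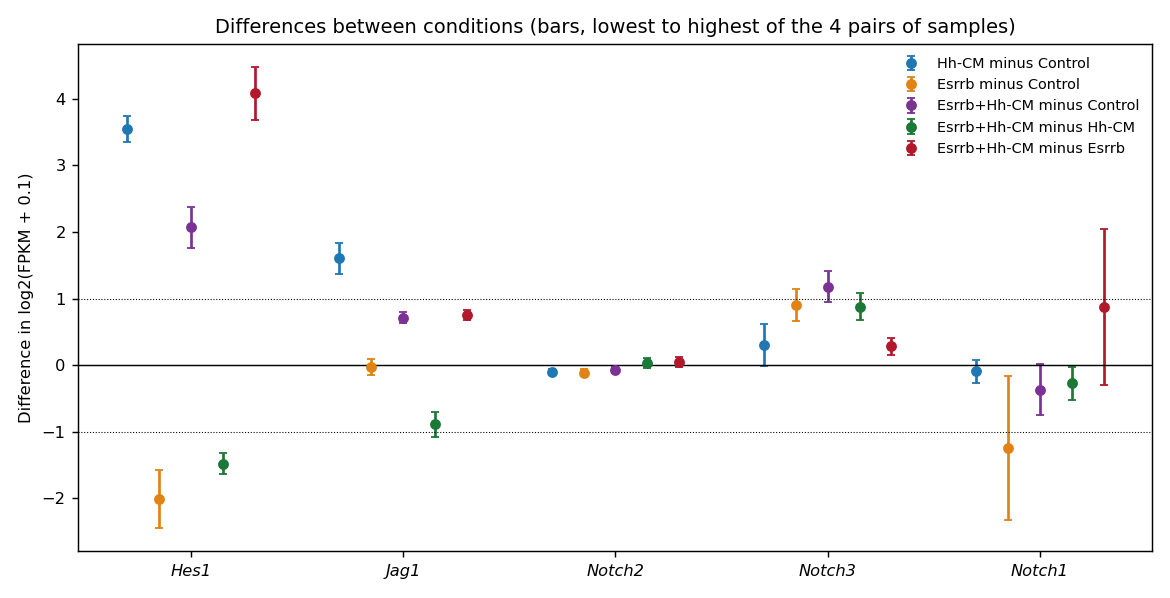
Differences in log2(FPKM + 0.1) for Hes1, Jag1, Notch2, Notch3 and Notch1 in the 5 comparisons, with points for the difference of means and bars from the lowest to the highest of the 4 pairs of samples, and dotted lines at a difference of 1 in either direction. The 5 Hes1 points lie beyond the dotted lines, Notch2 stays between -0.12 and 0.05, and the long Notch1 bars come from the Esrrb sample listed at 0.

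Notch2 was the most abundant of the 3 receptors (mm9 chr3:97817461-97954290, plus strand). It stood at 6.45 and 6.56 FPKM in Control, 5.89 and 6.22 in Hh-CM, 6.17 and 5.82 in Esrrb, and 6.05 and 6.33 in Esrrb+Hh-CM samples. The Control samples lay just above the others and the remaining 3 conditions overlapped. Its largest log2 difference in size was -0.12 ± 0.07 (SE), in Esrrb against Control samples.

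Notch3, a receptor known from vascular smooth muscle and pericytes, was higher in samples labelled with the Esrrb vector (mm9 chr17:32257765-32303825, minus strand). Its level was 0.347 and 0.251 FPKM in Control, 0.341 and 0.440 in Hh-CM, 0.673 and 0.606 in Esrrb, and 0.835 and 0.761 in Esrrb+Hh-CM samples. All 4 samples labelled with the Esrrb vector lay above all 4 with the empty vector, while Control and Hh-CM samples overlapped. The mean was 2.14-fold higher in Esrrb than in Control samples and 2.04-fold higher in Esrrb+Hh-CM than in Hh-CM samples. With Hh-CM it was 1.25-fold higher in the Esrrb line, with no overlap between the samples, and 1.31-fold higher in the control line, with overlap. The level stayed below 1 FPKM in each sample, so Notch3 did not enter the fit. Of the smooth muscle and pericyte markers, Acta2 and Cspg4 were lower in samples labelled with the Esrrb vector at either treatment. Cspg4 had a mean of 1.72 FPKM in Control and 0.884 in Esrrb, and of 3.15 in Hh-CM and 2.36 in Esrrb+Hh-CM samples. Cnn1, calponin 1, was higher, at a mean of 0.124 FPKM in Control and 0.476 in Esrrb samples. With Hh-CM the mean of Cnn1 was 0.314 in Hh-CM and 0.581 in Esrrb+Hh-CM samples. Myh11, Des and Rgs5 stayed below 1 FPKM, as did Cnn1, and overlapped between Esrrb and Control samples. With Hh-CM, Des and Rgs5 overlapped between the lines and Myh11 was lower in Esrrb+Hh-CM samples.

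Notch1, a receptor well known from T-cell leukaemia, was low in all conditions (mm9 chr2:26313423-26372183, minus strand). It stood at 0.404 and 0.310 FPKM in Control, 0.320 and 0.332 in Hh-CM, 0.266 and 0 in Esrrb, and 0.314 and 0.199 in Esrrb+Hh-CM samples. The value of Esrrb replicate 2 is listed at 0 with an upper limit of 0.0138 in the file, far from the 7 other samples. The log2 difference between Esrrb and Control samples was -1.25 with that sample and -0.31 without it.

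Hey1, Hey2 and Heyl, the Hes-related repressors best known from heart and blood vessels, were at or near 0. Hey1 (mm9 chr3:8663362-8667039, minus strand) stood at 0.0312 and 0.0532 FPKM in Control, 0.112 and 0.0608 in Hh-CM, 0.0366 and 0 in Esrrb, and 0.0987 and 0.0420 in Esrrb+Hh-CM samples. By the same steps these were 1 and 2, 4 and 3, 1 and 0, and 3 and 1 reads, with 1 read worth 0.0203 to 0.0420 FPKM. The 7 reads over Hh-CM against 3 over Control samples give a ratio of 1.91, with a counting interval of 0.437 to 11.5, so no difference was detectable at this depth. Heyl (mm9 chr4:122910799-122927118, plus strand) was listed at 0 in each sample but Hh-CM replicate 1, which had 0.0130 FPKM. Hey2 (mm9 chr10:30552165-30562607, minus strand) was listed at 0 in all 8 samples.

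Nrarp, a small ankyrin-repeat protein that Notch induces and that limits the intracellular domain, was likewise listed at 0 in all 8 samples (mm9 chr2:25036278-25038850, plus strand). Among the 4 Hes and Hey genes and Nrarp, the members that Notch is known to switch on, Hes1 was thus the 1 gene above 0.2 FPKM in any sample. The ligand Jag1 and the receptor Notch2 were present in every sample.

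The other genes of the pathway were described from 84 genes in 9 lists, of which 81 had a value and 63 entered the fit. Aph1a, Aph1b and Psenen, parts of γ-secretase, had no value. The steps between ligand and target were expressed: all 6 cleavage genes with a value, 15 of 18 trafficking and turnover genes, 9 of 10 genes of the nuclear complex and all 14 corepressors had a mean of at least 1 FPKM. The other ligands and the fourth receptor were scarce, apart from the noncanonical ligand Dlk1. Of 7 further ligands 6 had a mean under 0.2 FPKM (Jag2, Dll1, Dll3, Dll4, Dlk2 and Dner), and the receptor Notch4 averaged 0.0744.

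**Figure D3:**
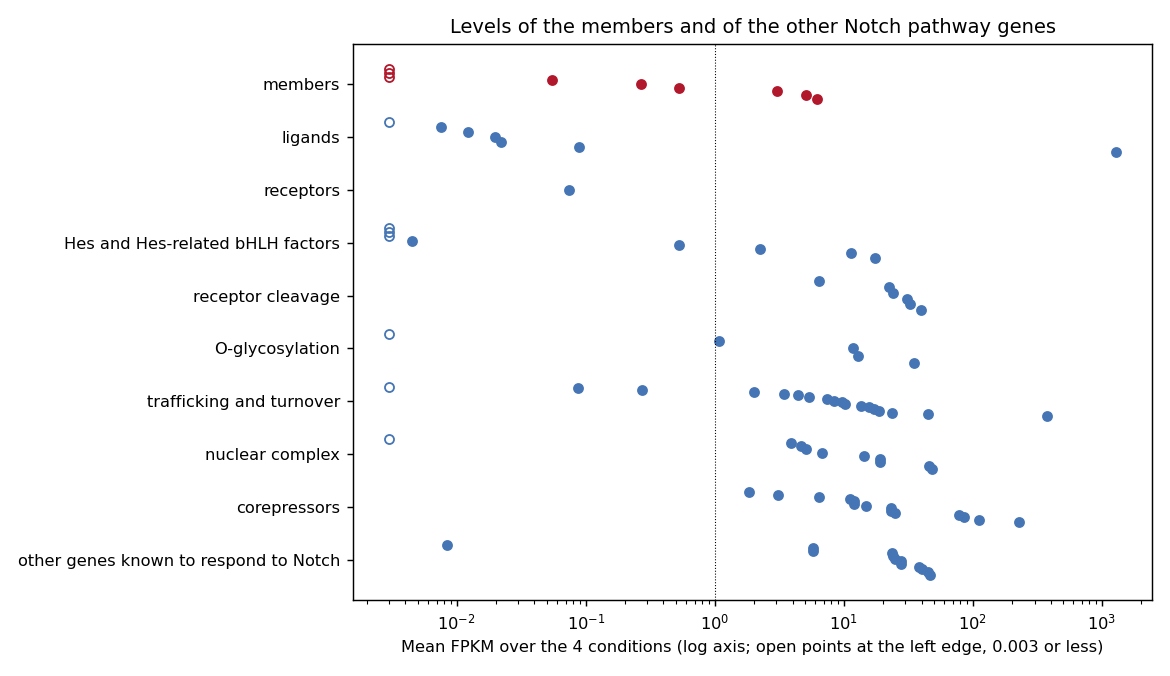
Mean FPKM over the 4 conditions, on a log axis, of the 9 members and of 81 other genes of the pathway in 9 lists, with 1 point per gene and open points at the left edge for means of 0.003 or less. Of the members 3 lie above the dotted line at 1 FPKM, while the 6 cleavage genes and the 14 corepressors all do.

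Adjusted p-values below are from limma over all 10286 genes with Benjamini-Hochberg adjustment, and a gene is said to have risen or fallen where this was below 0.05, whether or not the difference reached 1 on the log2 scale. In Hh-CM against Control samples 2 of the 63 other genes of the pathway passed both thresholds, both higher, and 19 passed the adjusted p alone, 12 higher and 7 lower (30.2%, beside 18.0% of all genes). Their median log2 difference was 0.06, beside 0.04 over all genes. In Esrrb against Control samples 0 of 63 passed both thresholds and 14 passed the adjusted p alone, 9 higher and 5 lower (22.2%, beside 16.4%), with a median of 0.12 beside 0.05. In Esrrb+Hh-CM against Control samples 4 passed both thresholds, 3 higher and 1 lower, and 37 the adjusted p alone, 23 higher and 14 lower (58.7%, beside 35.0%), with a median of 0.14 beside 0.08. In Esrrb+Hh-CM against Hh-CM samples 0 passed both thresholds and 20 the adjusted p alone, 11 higher and 9 lower (31.7%, beside 18.9%), with a median of 0.04 beside 0.05. In Esrrb+Hh-CM against Esrrb samples 5 passed both thresholds, 3 higher and 2 lower, and 22 the adjusted p alone, 14 higher and 8 lower (34.9%, beside 23.4%), with a median of 0.03 beside 0.04. In this order, 3.17%, 0%, 6.35%, 0% and 7.94% of the 63 genes passed both thresholds. Over all genes it was 2.76%, 1.47%, 6.22%, 1.98% and 4.81%. These comparisons share samples and are not independent of each other.

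By list, the genes that passed both thresholds were the ligand Dlk1, the trafficking gene Neurl1a, the Hes-related factor Bhlhe41 and, among genes known to respond to Notch, Nrp1, Snai1, Efnb2 and Id3. Of the 11 fitted genes of that last list, 1, 0, 3, 0 and 4 passed both thresholds in the comparisons in the order above, beside 2.76%, 1.47%, 6.22%, 1.98% and 4.81% of all genes. By the adjusted p alone, 5, 1, 5, 2 and 4 of them were higher in this order. Lower were 4, 1, 6, 4 and 4, beside 18.0%, 16.4%, 35.0%, 18.9% and 23.4% of all genes in either direction. The list was chosen with earlier results of these data known. None of the fitted cleavage, O-glycosylation, nuclear complex or corepressor genes passed both in any comparison. By the adjusted p alone, the 14 corepressors gave 3 higher and 1 lower in Hh-CM against Control (beside 18.0% of all genes in either direction) and the same numbers in Esrrb against Control samples (beside 16.4%). They gave 7 higher and 2 lower in Esrrb+Hh-CM against Control (beside 35.0%), 5 higher and 0 lower in Esrrb+Hh-CM against Hh-CM (beside 18.9%) and 7 higher and 0 lower in Esrrb+Hh-CM against Esrrb samples (beside 23.4%).

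Dlk1, a Delta-like protein that lacks the receptor-binding domain of the canonical ligands, was the most abundant ligand by far. It stood at 448 and 450 FPKM in Control, 2590 and 3030 in Hh-CM, 2042 and 502 in Esrrb, and 621 and 605 in Esrrb+Hh-CM samples. The Esrrb samples lie far apart, with 1 near the Hh-CM level and 1 near Control. Dlk1 rose in Hh-CM against Control samples by 2.64 ± 0.60 on the log2 scale (adjusted p = 0.0329), and the difference of -2.19 between Esrrb+Hh-CM and Hh-CM samples missed the threshold (adjusted p = 0.0542). The study's own list of genes altered by Hh-CM in empty-vector cells, made with Cuffdiff, does not name Dlk1. The reason was not tested. The limma SE pools the spread within all conditions, the Esrrb samples included. With only the compared groups fitted, the SE was 0.089 and 0.093, and the limma adjusted p 0.0037 and 0.0069. Both outcomes depend on which samples are in the fit: the adjusted p of the first was 0.000317 without Esrrb replicate 1 and 0.000318 without Esrrb replicate 2. It was 0.123 and 0.117 without Control replicate 1 or 2, 0.110 and 0.131 without Hh-CM replicate 1 or 2, and 0.0595 and 0.0592 without Esrrb+Hh-CM replicate 1 or 2. For Esrrb+Hh-CM against Hh-CM samples it was 0.000849 without Esrrb replicate 1 and 0.000855 without Esrrb replicate 2.

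Of the 6 cleavage genes, 1 rose and 1 fell in Hh-CM against Control samples, beside 18.0% of all genes in either direction. Adam17, the most abundant of the 6 cleavage genes and a protease that sheds many surface proteins, stood at 43.2 and 44.9 FPKM in Control, 32.4 and 34.5 in Hh-CM, 47.2 and 48.3 in Esrrb, and 33.4 and 34.2 in Esrrb+Hh-CM samples. Adam17 fell with Hh-CM in both lines, by 0.40 on the log2 scale in the control line (adjusted p = 0.00341) and by 0.50 in the Esrrb line (adjusted p = 0.000974). Adam10, the protease best known for cutting ligand-bound Notch, stood at 30.9 and 29.7 FPKM in Control and 32.0 and 31.3 in Hh-CM samples, a log2 difference of 0.06 (adjusted p = 0.305). Furin, which processes the receptor before it reaches the surface, rose by 0.29 in the same comparison (adjusted p = 0.0404). Rbpj, the DNA-binding protein of the nuclear complex, stood at 59.5 and 58.8 FPKM in Control, 41.6 and 43.0 in Hh-CM, 46.5 and 45.2 in Esrrb, and 37.0 and 36.5 in Esrrb+Hh-CM samples, with no overlap between conditions. Rbpj fell in each of the 5 comparisons, by 0.48 in Hh-CM against Control (adjusted p = 0.000774), by 0.37 in Esrrb against Control (adjusted p = 0.00298) and by 0.68 in Esrrb+Hh-CM against Control samples (adjusted p = 0.000105). The falls in Esrrb+Hh-CM samples were 0.20 against Hh-CM (adjusted p = 0.0173) and 0.32 against Esrrb samples (adjusted p = 0.00219). None of these Adam17, Furin and Rbpj differences reached 1 on the log2 scale.

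Of 8 further Hes and Hes-related factors, Hes6, Bhlhe40 and Bhlhe41 entered the fit. Hes3, Hes5 and Helt were listed at 0 in all 8 samples, and Hes2 had a value above 0 in 1. Hes7 ranged from 0 to 1.42 FPKM between the Hh-CM samples and overlapped between all conditions compared. Hes6, a family member that counteracts Hes1, stood at 10.04 and 8.93 FPKM in Control, 9.58 and 10.4 in Hh-CM, 12.7 and 12.8 in Esrrb, and 12.97 and 13.8 in Esrrb+Hh-CM samples. Hes6 rose in Esrrb against Control samples by 0.43 on the log2 scale (adjusted p = 0.0217), and the Hh-CM and Control samples overlapped. Bhlhe41, a repressor of the circadian clock that is related to the Hes family, stood at 1.69 and 1.91 FPKM in Control, 3.56 and 3.32 in Hh-CM, 1.04 and 1.22 in Esrrb, and 2.72 and 2.44 in Esrrb+Hh-CM samples. Its 4 conditions did not overlap and stood in the same order as those of Hes1, over a narrower range. Bhlhe41 rose by 1.13 on the log2 scale in Esrrb+Hh-CM against Esrrb samples (adjusted p = 0.00262), and its difference of 0.90 in Hh-CM against Control samples passed the adjusted p alone (adjusted p = 0.00852). Its relative Bhlhe40 was far more abundant, at 20.4 to 21.3 FPKM with the empty vector and 12.9 to 15.8 in samples labelled Esrrb and Esrrb+Hh-CM.

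Of the 11 fitted genes known to respond to Notch in other cells, 5 rose and 4 fell in Hh-CM against Control samples. Beside this, 18.0% of all genes did so in either direction. Those that passed both thresholds in any comparison were Nrp1 and Snai1, which rose with Hh-CM, and Efnb2 and Id3, which fell. Nrp1, the co-receptor neuropilin 1, stood at 18.2 and 19.2 FPKM in Control, 63.6 and 68.2 in Hh-CM, 19.7 and 19.4 in Esrrb, and 49.0 and 48.2 in Esrrb+Hh-CM samples. It rose by 1.81 ± 0.05 in Hh-CM against Control (adjusted p = 3.02e-05), by 1.31 in Esrrb+Hh-CM against Esrrb (adjusted p = 5.43e-05) and by 1.37 in Esrrb+Hh-CM against Control samples (adjusted p = 3.15e-05). Like Jag1, it was level between Control and Esrrb samples to within 0.06 on the log2 scale and highest in Hh-CM samples.

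Snai1, a repressor of epithelial genes, stood at 25.4 and 24.5 FPKM in Control, 46.2 and 52.8 in Hh-CM, 24.5 and 27.95 in Esrrb, and 64.9 and 55.5 in Esrrb+Hh-CM samples. Snai1 rose by 1.19 on the log2 scale in Esrrb+Hh-CM against Esrrb (adjusted p = 0.000909) and by 1.26 in Esrrb+Hh-CM against Control samples (adjusted p = 0.000538). Its difference of 0.98 in Hh-CM against Control samples lay just under the size threshold (adjusted p = 0.00285). Neurl1a, an E3 ligase of the Neuralized family, which acts on Notch ligands, rose by 1.30 in Esrrb+Hh-CM against Control samples (adjusted p = 0.00251), from 1.06 and 1.30 to 3.31 and 2.78 FPKM. It also rose by 0.95 in Hh-CM against Control (adjusted p = 0.0143) and by 0.98 in Esrrb+Hh-CM against Esrrb samples (adjusted p = 0.00963). Both lay just under the size threshold. In Esrrb against Control samples the difference of Neurl1a was 0.31 (adjusted p = 0.261).

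Efnb2, the ephrin B2 ligand of arterial endothelium, stood at 8.17 and 8.96 FPKM in Control, 4.97 and 4.85 in Hh-CM, 7.27 and 6.21 in Esrrb, and 2.79 and 2.74 in Esrrb+Hh-CM samples. Efnb2 fell by 1.60 on the log2 scale in Esrrb+Hh-CM against Control (adjusted p = 0.000154) and by 1.25 in Esrrb+Hh-CM against Esrrb samples (adjusted p = 0.000495). Id3, an inhibitor of basic helix-loop-helix factors, stood at 30.9 and 28.3 FPKM in Control, 19.4 and 20.3 in Hh-CM, 32.6 and 38.2 in Esrrb, and 15.9 and 13.8 in Esrrb+Hh-CM samples. Id3 fell by 1.25 in Esrrb+Hh-CM against Esrrb samples (adjusted p = 0.00066). Both Efnb2 and Id3 were lowest in Esrrb+Hh-CM samples. Hes1, Jag1 and Nrp1 were highest in Hh-CM samples, whereas Snai1 and Neurl1a were highest in Esrrb+Hh-CM samples.

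**Figure D4:**
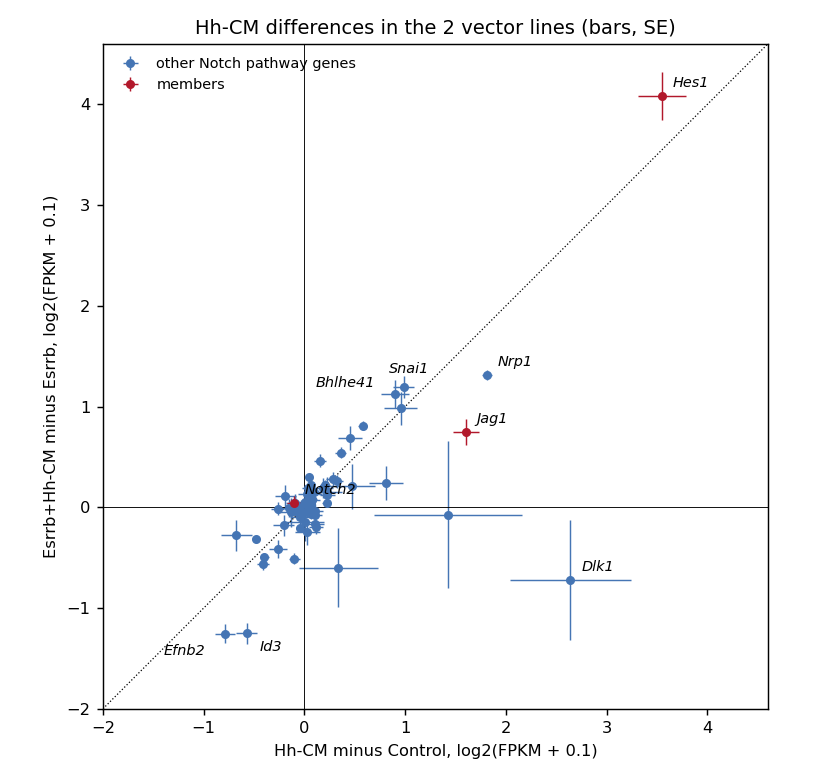
Difference in log2(FPKM + 0.1) with Hh-CM in the empty-vector line (horizontal axis) and in the line labelled Esrrb (vertical axis) for 63 genes of the pathway and the 3 fitted members, with bars for the limma SE and a dotted line of equal difference. Hes1 lies near 3.55 and 4.08, Jag1 and Nrp1 lie right of the dotted line, Dlk1 has wide bars, and Efnb2 and Id3 lie below 0 on both axes.

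The genes whose profile over the 8 samples was most like that of a member were found by the root mean square difference of log2(FPKM + 0.1) after the mean of each gene was subtracted, over the 10286 fitted genes. For Hes1 these were Serpinb1a (0.504), Pgf (0.654) and Inhba (0.762). Serpinb1a, a protease inhibitor, stood at 1.86 and 1.99 FPKM in Control, 15.5 and 15.9 in Hh-CM, 0.257 and 0.674 in Esrrb, and 10.1 and 8.38 in Esrrb+Hh-CM samples. Its low level in Esrrb samples is part of the profile it was selected on. Inhba, a subunit of activin, stood at 15.4 and 15.5 FPKM in Hh-CM and at 14.7 and 15.1 in Esrrb+Hh-CM samples, close together where Hes1 was 2.84-fold apart.

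For Jag1 the most alike genes were Samd10 (0.134), Il33 (0.193) and Capn1 (0.219). Il33, an alarmin cytokine, stood at 22.2 and 22.3 FPKM in Control, 61.1 and 60.1 in Hh-CM, 18.4 and 17.6 in Esrrb, and 27.6 and 26.2 in Esrrb+Hh-CM samples. For Notch1, whose range rests on the sample listed at 0, Gprc5a (0.393), Pcsk4 (0.393) and BC051226 (0.399) were nearest. Notch3, added after its values were seen, was most like Ednra (0.131), D8Ertd82e (0.135) and Grik2 (0.150). Ednra, the endothelin A receptor, stood at 5.61 and 5.21 FPKM in Control, 5.88 and 6.07 in Hh-CM, 8.74 and 8.89 in Esrrb, and 10.8 and 10.2 in Esrrb+Hh-CM samples.

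**Figure D5:**
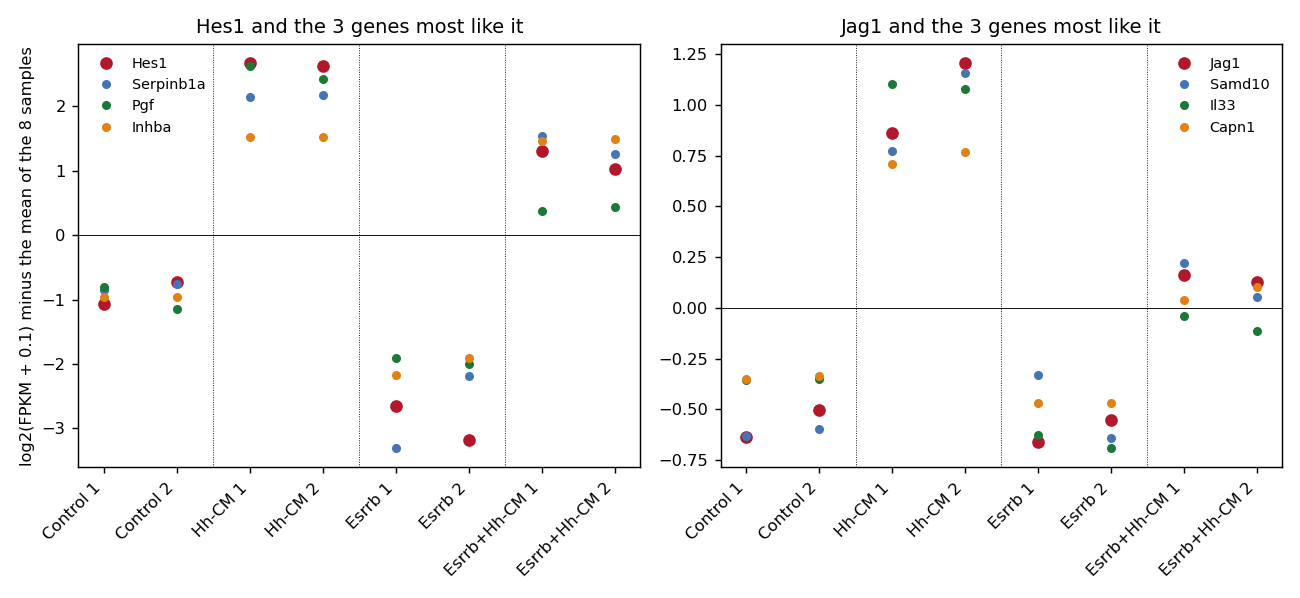
Values of log2(FPKM + 0.1) minus the mean of the 8 samples for Hes1 with Serpinb1a, Pgf and Inhba (left) and for Jag1 with Samd10, Il33 and Capn1 (right), with 1 point per gene and sample and dotted lines between conditions. All 4 genes on the left are lowest in Esrrb samples, and all 4 on the right are highest in Hh-CM samples.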

How the data were processed

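RNA-Seq values of 8 NIH3T3 samples (4 conditions, 2 samples each) were used. The deposited values are FPKM per locus, which the authors made from poly-A selected, stranded libraries with FASTX-Toolkit (trimming), Bowtie2 and TopHat2 (mapping, mm9) and Cufflinks (assembly of every sample on its own). The study's methods call the unit RPKM. Versions of these tools are not given in the sources used here. Each locus was matched to the GENCODE vM1 gene of the same build with the largest overlap (Jaccard of at least 0.5), and the best locus of each gene was used.

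Group means were fitted to log2(FPKM + 0.1) with limma 3.58.1 in R 4.3.3, with a variance trend, over the 10286 genes that reached 1 FPKM in 2 or more samples, with Benjamini-Hochberg adjustment. A pseudocount of this size understates the fold change of low genes. A call needed both an adjusted p under 0.05 and 1 or more in log2 difference, and for the interaction the adjusted p alone. The study's Cuffdiff step needs aligned reads, which are not used here. An exact permutation test of 2 against 2 samples cannot go below 0.333 and was not used.

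The members and lists were chosen with earlier results of these data known. Genes were named by rule: the members, called genes of the lists, the most abundant ligand and cleavage enzyme, Rbpj, Gli1, Ptch1, Esrrb, and the 3 genes most like each of the 3 members with the widest range. Hes2, Hes3, Hes5, Hes6, Hes7, Helt, Bhlhe40, Adam10, Furin, Notch4, the ligands at low levels and the genes like Notch3 were added after their values were seen, as were the marker genes named. Reads behind Hes1 and Hey1 were counted from the steps of FPKM, also chosen after the data were seen. The study gives only an approximate number of reads per sample, and the exact depth of each sample is unknown. Relative to Control replicate 1 the depth ran from 0.743 to 1.54. Between replicates, 97.7% to 97.8% of genes differed by less than 1 on the log2 scale. Other steps ran in Python 3.11.15 (pandas 2.3.3, numpy 2.4.6), with figures by matplotlib 3.10.9. The alternatives were pseudocounts of 1 and 0.001, no filter, a filter at 1 FPKM in all samples, a replicate block, a fit of the compared groups alone, rescaled FPKM, no variance trend, summed loci, a Jaccard of at least 0.8, and each sample left out in turn.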

Additional observations from a re-analysis of the deposited data

Results flagged for a closer look

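The Hh-CM difference of Nrp1 differed between the lines by a test of the difference itself. It was 1.81 on the log2 scale in the empty-vector line and 1.31 in the line labelled Esrrb, an interaction of -0.50 ± 0.07 (SE, limma, adjusted p = 0.0406). The adjusted p was 0.0879 with a replicate block, 0.0709 without the variance trend, and between 0.0594 and 0.121 when any 1 of the 8 samples was left out (Control, Hh-CM, Esrrb or Esrrb+Hh-CM replicate 1 or 2), so the call does not hold in 10 of the 17 alternatives.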

How the results depend on the processing

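No called difference changed sign. Of 588 alternative values of single members above 0 in any sample, 19 changed sign: the Hes1 interaction (0.53, and -0.66 with a pseudocount of 1), the Notch1 difference between Esrrb+Hh-CM and Esrrb samples (0.88, and -0.06 without Esrrb replicate 2), and others whose difference was at most 0.14 in size. Counts of other pathway genes past both thresholds (2, 0, 4, 0 and 5 in the order Hh-CM against Control, Esrrb against Control, Esrrb+Hh-CM against Control, against Hh-CM and against Esrrb) were 19, 14, 37, 20 and 22 by the adjusted p alone. Leaving out 1 sample gave 1 to 4, 0 to 1, 4 to 6, 0 to 1 and 5 to 7. In these fits the lone sample is assumed to vary like the other groups, and the cause of the changes was not tested. Esrrb+Hh-CM against Hh-CM gave 1 gene with the filter at 1 FPKM in all samples, with only the compared groups, with rescaled FPKM and with a Jaccard of at least 0.8. The interaction, 1 gene, gave 0 with the replicate block and with no variance trend, and 0 to 1 without 1 sample. Replicate numbers did not pair the samples (correlations of deviations from -0.0593 to 0.0623). Members with a log2 difference of at least 1 in size numbered 2, 2, 2, 1 and 1 in the same order. These were Hes1 in all 5 comparisons, with Jag1 in the first, Notch1 in the second and Notch3 in the third. Notch1 reached this size only with the Esrrb sample listed at 0. The share of all genes past this size alone was not computed, so nothing is read from these counts. A pseudocount of 0.001 gave 4 in the first, 4 in the second and 3 in each of the last 2 comparisons, and a pseudocount of 1 gave 0 in Esrrb against Control and 1 in Esrrb+Hh-CM against Control samples. Without 1 sample they were 2 to 2, 1 to 3, 2 to 2, 1 to 2 and 1 to 2. Of the 588 values 535 moved by less than the spread between replicates and 53 by more, and of 182 alternative counts 35 moved by over 1.5 times. Depth limits Hey1, Heyl and the low end of Hes1, where 1 read decides the value.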
